A study of Homo sapiens with 6 samples.

Results

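The aminoacyl-tRNA synthetases were measured as 36 of the 16834 genes with a value in this RNA-seq data set. They were chosen by gene symbol, with no threshold on the values measured, and all 36 listed genes passed the authors' filter on low counts. By the name and known location of their product, 18 encode a cytosolic enzyme, 16 a mitochondrial enzyme and 2 (GARS1 and KARS1) an enzyme that is used in both compartments. The list does not name every human synthetase.

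Aminoacyl-tRNA synthetases join each amino acid to its own tRNA and so supply the charged tRNAs that ribosomes read. Human cells hold a largely separate set for the mitochondria, encoded in the nucleus and imported after translation, which charges the tRNAs that read the few mRNAs of the mitochondrial genome. The enzymes fall into class I and class II by the fold of their catalytic domain, and several cytosolic ones are bound to each other in the multisynthetase complex. Many genes of the cytosolic set are known targets of ATF4, the transcription factor of the amino acid response.

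The 6 libraries came from unsynchronized, cycling cultures of HEK293-T Flp-In, a human embryonic kidney line with a recombination site into which 1 copy of the ccTaggedRP construct, driven by the CAG promoter, was inserted. All samples therefore carry both tagged forms of the mouse ribosomal protein RPL10a, Flag-RPL10a-hCdt with a degron of Cdt1 and HA-RPL10a-hGem with a degron of geminin, and the groups differ in the antibody used. In 3 libraries the RNA bound to ribosomes was recovered with a Flag antibody (Flag-IPs) and in 3 with an HA antibody (HA-IPs), to compare the mRNAs of cells rich in the Flag form, predicted for G1, with those of cells rich in the HA form, predicted for G2-M. No input RNA and no mock IP was used here, and whether the IPs of a group came from separate cultures is not stated, so that p-values measure the spread between these samples, which may be technical.

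The libraries held 23174532 to 44134833 reads, and a synthetase had between 259 and 42173 reads in a library. Values are reads divided by the size factor of the library, called normalized counts. Genes were called at a limma adjusted p of at most 0.05. Of the 7 markers of HEK293 cells, KRT8, KRT18, VIM, NEFL and CDH2 had at least 2775 normalized counts in every library, whereas PAX2 had 112 in the Flag-IPs and 65.4 in the HA-IPs and NEFM at most 38.7. Of 25 heart muscle markers, which this cell line is not known for, 20 had a value and all 20 were called higher in the Flag-IPs, as were 6 of 7 fibroblast, 3 of 4 endothelial and the 1 blood marker measured. Of 9 markers of mature kidney 4 had a value, of which SLC34A1 and SLC12A1 were called higher in the Flag-IPs and LRP2 higher in the HA-IPs. The heart muscle markers took 0.522%, 0.374% and 0.238% of the reads in Flag-IPs 1 to 3 and 0.00937%, 0.00598% and 0.0472% in HA-IPs 1 to 3. CSRP3 was at 0 reads in at least 1 HA-IP, and no heart muscle marker was at 0 in all 3. Their part in the differences given next was not tested.

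More synthetase mRNAs were higher in the HA-IPs than in the Flag-IPs. The HA-IPs were called higher for 13 of the 36 genes (36.1%) and the Flag-IPs for 0, where 5.79% and 7.1% of all 16834 genes were. At an unadjusted p of under 0.05, 17 were higher in the HA-IPs and 0 lower, and edgeR and DESeq2 on the recovered reads called 13 and 14, all of them higher in the HA-IPs, beside 5.35% and 6.2% of all genes in that direction. Synthetases are well expressed, and among the 5959 genes that averaged 1000 normalized counts or more the share called higher in the HA-IPs was 14.4%, and 7.42% were called higher in the Flag-IPs. Of the 36 synthetases, 32 reached that level, among them all 13 called. Of the 2171 genes called in either direction 44.9% were higher in the HA-IPs, and with libraries scaled to the same total 23.0% were, with 9 synthetases called, all higher in the HA-IPs. The median log2 fold change (HA-IP over Flag-IP) was 0.12 over the 36 genes and -0.0049 over all genes, and 32 of the 36 values were above 0 (28 at the same total per library, 30 under quantile normalization and 29 with GC and coding length trends removed). Among the genes averaging 1000 or more the median was 0.052 and 63.6% were above 0, against a median of 0.14 over the 32 synthetases at that level. Under quantile normalization the median of all genes was 0.044, and that of the synthetases stood 0.051 above it instead of 0.12. The differences were small, from 11.7% higher for FARSA to 22.9% higher for EPRS1 among the called genes.

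All HA-IPs exceeded all Flag-IPs for 20 of the 36 genes, beside 16.1% of all genes. Among genes averaging 1000 normalized counts or more this held for 1896 of 5959, and for 19 of the 32 synthetases at that level. All Flag-IPs exceeded all HA-IPs for 1 gene, YARS2, beside 16.1% of all genes and 871 of those 5959. The groups overlapped for the other 15 synthetases. In bulk RNA recovered by IP, fewer cells of a kind and less RNA per cell cannot be told apart, and a higher value says that the mRNA took a larger share of the RNA recovered. The calls depended on single libraries. Without Flag-IP 2, 0 of the 36 passed the adjusted threshold, with 16 at an unadjusted p of under 0.05, and without HA-IP 1, 2 or 3 the number was 2, 3 and 3. It was 12 without Flag-IP 1 and 14 without Flag-IP 3. Calls over all genes also fell from 2171, to 620 without Flag-IP 2 and to 780, 900 and 1216 without HA-IP 1, 2 or 3. For all 13 called genes every HA-IP was above every Flag-IP, so leaving out 1 library could not change their sign.

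**Figure D1:**
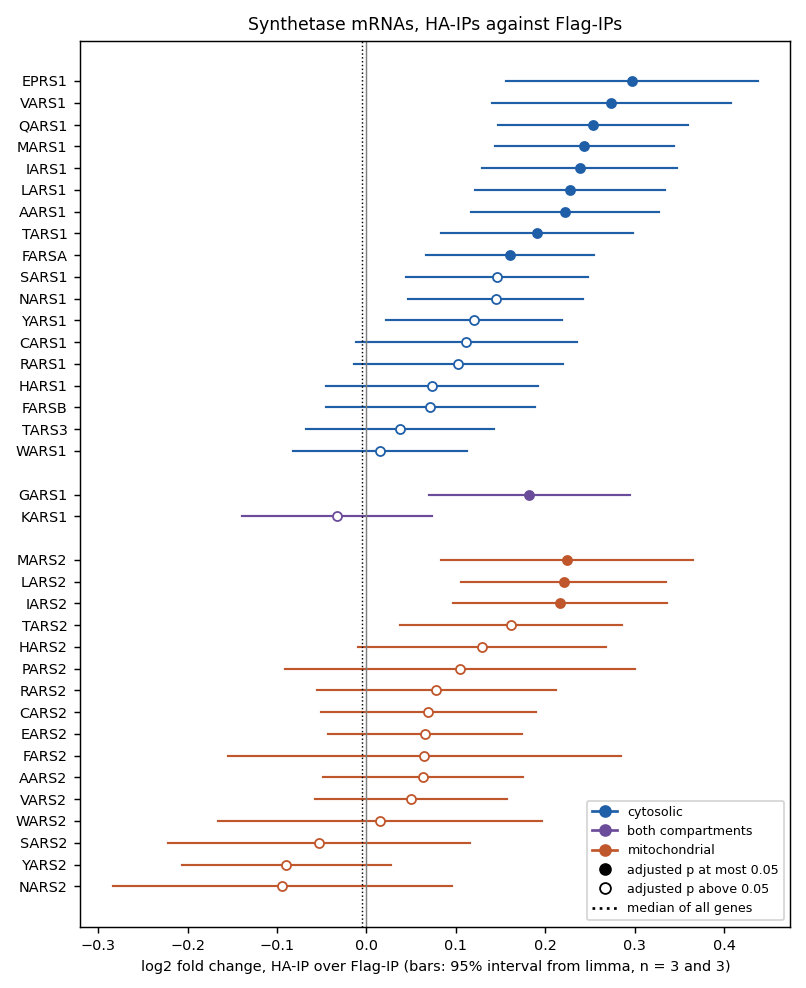
Log2 fold change (HA-IP over Flag-IP) for each of the 36 synthetase genes, with the 95% interval from limma (n = 3 and 3), ordered within the cytosolic, shared and mitochondrial sets. Filled points passed an adjusted p of 0.05, and the dotted line is the median of all genes at -0.0049. All 18 cytosolic points lie above 0 in this fit (but not TARS3 and WARS1 at the same total per library or with GC and coding length trends removed, nor WARS1 under quantile normalization), against 13 of the 16 mitochondrial points (but not VARS2 under any of these 3 alternatives, nor WARS2 at the same total).

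The 18 cytosolic genes showed the difference most often. All 18 had a positive log2 fold change, except TARS3 and WARS1 at the same total per library and with GC and coding length trends removed, and WARS1 under quantile normalization. Of the 18, 9 passed the test (50%), and in 14 all HA-IPs exceeded all Flag-IPs. All 18 averaged 1000 normalized counts or more. Among genes at that level 14.4% were called higher in the HA-IPs and 1896 of 5959 had this order. The median log2 fold change of the 18 was 0.15. It stood 0.086 above the mitochondrial median, and 0.017 above it under quantile normalization. The called genes were EPRS1, VARS1, QARS1, MARS1, IARS1, LARS1, AARS1, TARS1 and FARSA, and the other 9 ranged from 0.015 (WARS1) to 0.15 (SARS1).

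EPRS1 (ENSG00000136628, chr1:219968600-220046530 on the minus strand, GRCh38) encodes the fused glutamyl- and prolyl-tRNA synthetase, the enzyme with a class I and a class II catalytic domain in 1 chain. It had 23620.1, 23486 and 27556 normalized counts in Flag-IPs 1 to 3 and 29759, 30100.1 and 31652 in HA-IPs 1 to 3. The lowest HA-IP was above the highest Flag-IP, Flag-IP 3, which stood apart from the other 2 Flag-IPs. This was the largest change of the family, 22.9% (log2 fold change 0.30 ± 0.064, SE, n = 3 and 3, limma adjusted p = 0.0129). Valyl-tRNA synthetase, VARS1 (chr6:31777518-31795752 on the minus strand), stood next, with 18366, 19690.0 and 21834 in the Flag-IPs against 23694, 24359 and 24169 in the HA-IPs, and was 20.9% higher (log2 fold change 0.27 ± 0.061, SE, n = 3 and 3, limma adjusted p = 0.0145). Here too Flag-IP 3 was the highest of its group, as for 12 of the 13 called genes.

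The enzymes for methionine, glutamine, isoleucine and leucine are class I enzymes of the multisynthetase complex. MARS1, whose product also charges the initiator tRNA, had 12939.9, 12896 and 13719 normalized counts in Flag-IPs 1 to 3 and 15743, 15379 and 15691 in HA-IPs 1 to 3. The groups were apart by more than the spread within either of them, and MARS1 had the smallest adjusted p of the family (log2 fold change 0.24 ± 0.046, SE, n = 3 and 3, limma adjusted p = 0.00696). The exons of MARS1 share 937 bases with neighbouring genes, including DDIT3 on the opposite strand, and whether counting used strand is not stated. DDIT3 itself had at most 141 normalized counts in a library. QARS1, for glutamine, had 8669, 8895 and 9356 in the Flag-IPs against 10426, 10609 and 11041 in the HA-IPs and was 19.2% higher (log2 fold change 0.25 ± 0.048, SE, n = 3 and 3, limma adjusted p = 0.00738). MARS1 and QARS1 were called in 5 of the 6 fits that left out a library, more than any other synthetase.

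IARS1, for isoleucine, had 20276, 19753 and 20875 in the Flag-IPs against 25135, 23082 and 23649 in the HA-IPs, with HA-IP 1 the highest library (log2 fold change 0.24 ± 0.05, SE, n = 3 and 3, limma adjusted p = 0.0111). LARS1, whose enzyme is also known as a leucine sensor upstream of mTORC1, had 15690.4, 15829 and 16977 in the Flag-IPs against 18715, 18638 and 19384 in the HA-IPs (log2 fold change 0.23 ± 0.048, SE, n = 3 and 3, limma adjusted p = 0.0122). Neither gene had an HA-IP within the range of the Flag-IPs. Of the 7 genes whose product is a core enzyme of the multisynthetase complex (EPRS1, IARS1, KARS1, LARS1, MARS1, QARS1 and RARS1), 5 were called and the median log2 fold change was 0.24. RARS1, for arginine, had 5454, 5680.4 and 5906 in the Flag-IPs against 5949.9, 5886 and 6468 in the HA-IPs, which overlapped (log2 fold change 0.10 ± 0.053, SE, n = 3 and 3, limma adjusted p = 0.245). Of the other 13 enzymes used in the cytosol 5 were called, with a median of 0.14. Among all genes averaging 1000 normalized counts or more, 14.4% were called higher in the HA-IPs. The median mean level was 14390 normalized counts over the 7 genes of the complex and 7489 over the other 13. The part of level and coding length in these counts was not tested. The mRNAs of the 3 non-enzymatic scaffold proteins of the complex did not pass the test. Their median mean level was 984 normalized counts, against 14390 over the 7 enzymes. Their median transcript length was 1198 bases, against 2797. The difference between scaffold and enzyme genes was not tested. AIMP1 had a log2 fold change of -0.021 ± 0.073, AIMP2 of 0.061 ± 0.091 and EEF1E1 of -0.25 ± 0.14 (SE, n = 3 and 3). Of these, 0 of 3 were at an unadjusted p of under 0.05 and 0 of 3 were called by limma, edgeR or DESeq2. The limma interval of AIMP2 (-0.14 to 0.26) included 0.24, the median of the 7 enzyme genes. Those of AIMP1 (-0.18 to 0.14) and EEF1E1 (-0.56 to 0.069) did not. With GC and transcript length trends removed, AIMP1 was at 0.026, AIMP2 at 0.18 and EEF1E1 at -0.060.

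The called class II enzymes of the cytosol were AARS1, TARS1 and FARSA. AARS1, for alanine, had 15398, 14533 and 15825 in the Flag-IPs against 17459.5, 17841 and 18033 in the HA-IPs (log2 fold change 0.22 ± 0.048, SE, n = 3 and 3, limma adjusted p = 0.0129). TARS1, for threonine, had 15337, 15169.7 and 16173 in the Flag-IPs against 17129, 17676 and 18474 in the HA-IPs (log2 fold change 0.19 ± 0.049, SE, n = 3 and 3, limma adjusted p = 0.0273). For both genes all HA-IPs lay above all Flag-IPs. FARSA, the catalytic alpha subunit of phenylalanyl-tRNA synthetase, had 8544, 8389 and 8565 in the Flag-IPs against 9393, 9657 and 9441 in the HA-IPs, with little spread within a group (log2 fold change 0.16 ± 0.043, SE, n = 3 and 3, limma adjusted p = 0.0322). Its partner FARSB, the beta subunit of the same tetramer, had 3070.0, 2892 and 3154 in the Flag-IPs against 3112, 3138 and 3327 in the HA-IPs and was not called (log2 fold change 0.071 ± 0.053, SE, n = 3 and 3, limma adjusted p = 0.437). The groups overlapped for FARSB, although the enzyme contains both subunits in equal number. The difference between the 2 subunits' fold changes was not tested.

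NARS1 and SARS1 missed the threshold narrowly. NARS1, for asparagine, had 8610.1, 8719 and 8981 in the Flag-IPs against 9459.7, 9742 and 9879 in the HA-IPs, with no overlap (log2 fold change 0.14 ± 0.045, SE, n = 3 and 3, limma adjusted p = 0.0557), and was called by DESeq2 (adjusted p = 0.0446). SARS1, for serine, was at 5858, 5855 and 5689 in the Flag-IPs against 6301, 6285 and 6678 in the HA-IPs (log2 fold change 0.15 ± 0.047, SE, n = 3 and 3, limma adjusted p = 0.0622). At the other end, WARS1, for tryptophan, had 5365, 5344 and 5219 in the Flag-IPs against 5469, 5328 and 5302 in the HA-IPs, with a 95% interval of -0.082 to 0.11 for its log2 fold change, so that a difference as large as that of EPRS1 lay outside the interval. TARS3, a paralogue of TARS1, had 2270.1, 2314 and 2343 in the Flag-IPs against 2359.6, 2375 and 2373 in the HA-IPs, a difference of 2.62% (log2 fold change 0.037 ± 0.048, SE, n = 3 and 3, limma adjusted p = 0.679). With libraries scaled to the same total, the log2 fold changes of TARS3 and WARS1 were below 0 (-0.016 and -0.038).

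GARS1 and KARS1 each give rise to a cytosolic and a mitochondrial enzyme from 1 gene, and 1 of the 2 was called. GARS1, for glycine, had 7410.2, 7256 and 7947 in the Flag-IPs against 8768, 8202 and 8678 in the HA-IPs and was called higher in the HA-IPs (log2 fold change 0.18 ± 0.051, SE, n = 3 and 3, limma adjusted p = 0.039). KARS1, for lysine, had 6804, 7091 and 6521 in the Flag-IPs against 6692, 6471 and 6782 in the HA-IPs, with the groups overlapping (log2 fold change -0.033 ± 0.049, SE, n = 3 and 3, limma adjusted p = 0.719). KARS1 was the only listed gene charging cytosolic tRNAs with a value below 0, apart from TARS3 and WARS1 at the same total per library and with GC and coding length trends removed, and WARS1 under quantile normalization, and its 95% interval ran from -0.14 to 0.073. Without Flag-IP 1, 2 or 3 or any 1 HA-IP its log2 fold change stayed between -0.064 and -0.0031.

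**Figure D2:**
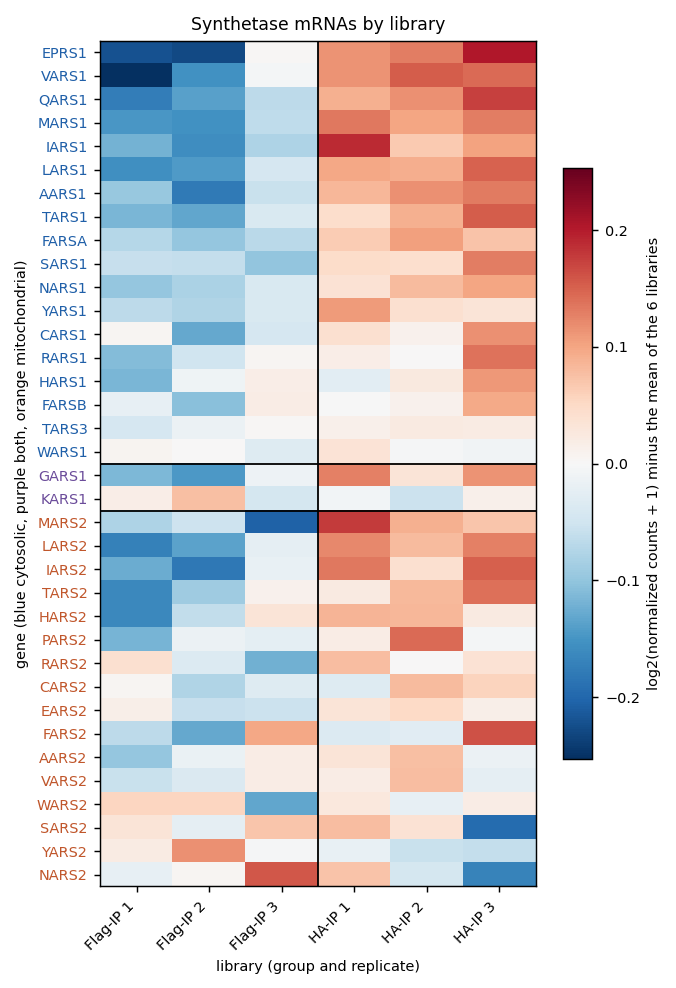
Values of the 36 synthetase genes in each library, as log2(normalized counts + 1) minus the mean of the gene over the 6 libraries, with cytosolic, shared and mitochondrial genes in turn from the top. The upper rows are red in all 3 HA-IPs and blue or pale in the Flag-IPs, palest in Flag-IP 3, and the lowest mitochondrial rows show no such order.

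Among the 16 mitochondrial genes 3 were called, all higher in the HA-IPs (18.8%), 13 were above 0 (but not VARS2 and WARS2 at the same total per library, nor VARS2 under quantile normalization or with GC and coding length trends removed) and the median log2 fold change was 0.067. In 5 of them all HA-IPs exceeded all Flag-IPs. Among genes averaging 1000 normalized counts or more, 14.4% were called higher in the HA-IPs and 1896 of 5959 had this order. Of the 12 mitochondrial genes at that level 4 had this order, so these counts are near those of other well-expressed genes. The called genes, MARS2, LARS2 and IARS2, charge methionine, leucine and isoleucine and belong to class I.

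MARS2, an intronless gene at chr2:197705369-197708395 on the plus strand, had 1155, 1175 and 1058 normalized counts in Flag-IPs 1 to 3 and 1379, 1297 and 1280.2 in HA-IPs 1 to 3. The lowest HA-IP was above the highest Flag-IP, and MARS2 was 16.8% higher (log2 fold change 0.22 ± 0.064, SE, n = 3 and 3, limma adjusted p = 0.0415). LARS2 had 3379, 3465 and 3745 in the Flag-IPs against 4143, 4026 and 4157 in the HA-IPs, again without overlap (log2 fold change 0.22 ± 0.052, SE, n = 3 and 3, limma adjusted p = 0.0193). IARS2 had 12767, 12287 and 13749.9 in the Flag-IPs against 15269.9, 14320.1 and 15475 in the HA-IPs (log2 fold change 0.22 ± 0.055, SE, n = 3 and 3, limma adjusted p = 0.025). Without Flag-IP 2, or without any single HA-IP, none of these 3 passed the threshold. As their groups did not overlap, their sign could not change in those fits.

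TARS2, for threonine, was the nearest of the others, with 3897, 4101 and 4398 in the Flag-IPs against 4431, 4619 and 4806 in the HA-IPs (log2 fold change 0.16 ± 0.057, SE, n = 3 and 3, limma adjusted p = 0.0861). The remaining 12 had log2 fold changes from -0.094 (NARS2) to 0.13 (HARS2). The values below 0 belonged to SARS2, YARS2 and NARS2. YARS2, for tyrosine, had 2205, 2356 and 2171 in the Flag-IPs against 2147, 2092 and 2085 in the HA-IPs, so that every Flag-IP was above every HA-IP, but the difference did not pass the test (log2 fold change -0.09 ± 0.053, SE, n = 3 and 3, limma adjusted p = 0.313). NARS2 had 584, 595 and 661 in the Flag-IPs against 624, 575 and 527 in the HA-IPs (log2 fold change -0.094 ± 0.087, SE, n = 3 and 3, limma adjusted p = 0.538) and SARS2 1151, 1106 and 1179.7 in the Flag-IPs against 1188, 1154 and 981 in the HA-IPs, where HA-IP 3 was the lowest of all libraries (log2 fold change -0.053 ± 0.077, SE, n = 3 and 3, limma adjusted p = 0.718). The exons of SARS2 share 1492 bases with a read-through gene on the same strand.

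Of the mitochondrial genes, 4 had a mean of under 1000 normalized counts (FARS2, NARS2, PARS2 and WARS2), and 0 of these 4 was called by limma, edgeR or DESeq2. The 95% interval of FARS2 ran from -0.16 to 0.28 and that of PARS2 from -0.091 to 0.30, which both include the values of the 3 called mitochondrial genes. Those of NARS2 (-0.28 to 0.096) and WARS2 (-0.17 to 0.20) do not include them. Of the 12 mitochondrial genes at or above 1000, 3 were called and the median was 0.074.

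Setting each cytosolic gene beside the mitochondrial gene for the same amino acid gave 18 pairs, in which EPRS1, FARS2 and TARS2 each entered 2. In the main fit the cytosolic gene had the larger fold change in 15 pairs and the smaller in 3. Among the latter WARS1 and WARS2 were nearly equal (0.01535 and 0.01538). Under quantile normalization the cytosolic gene had the smaller value in further pairs, among them those for leucine and methionine. With GC and coding length trends removed these 2 pairs also turned. Both genes were called for isoleucine, leucine and methionine, only the cytosolic gene in 6 pairs, only the mitochondrial gene in 0, and neither in 9. The pairs share genes and libraries, so these counts describe the list and were not tested.

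For isoleucine, leucine and methionine the log2 fold change of the cytosolic gene exceeded that of the mitochondrial gene by 0.022, 0.0067 and 0.019, less than the SE of either gene. The ratio of LARS1 to LARS2 was 4.64, 4.57 and 4.53 in the Flag-IPs against 4.52, 4.63 and 4.66 in the HA-IPs, with the groups overlapping. For valine the genes differed more: VARS2 had 4156, 4215 and 4379 in the Flag-IPs against 4378, 4567 and 4254 in the HA-IPs (log2 fold change 0.05 ± 0.049, SE, n = 3 and 3, limma adjusted p = 0.567), and the ratio of VARS1 to VARS2 was 4.42, 4.67 and 4.99 in the Flag-IPs against 5.41, 5.33 and 5.68 in the HA-IPs. All 3 HA-IP ratios lay above all Flag-IP ratios. Over all its annotated transcripts, the exons of VARS2 share 4073 bases with a long non-coding RNA on the same strand.

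For alanine, AARS2 had 3697, 3909 and 4009 in the Flag-IPs against 4044, 4173 and 3916 in the HA-IPs (log2 fold change 0.063 ± 0.051, SE, n = 3 and 3, limma adjusted p = 0.475). The ratio of AARS1 to AARS2 was 4.16, 3.72 and 3.95 in the Flag-IPs against 4.32, 4.28 and 4.61 in the HA-IPs, without overlap. EPRS1 serves 2 amino acids in the cytosol, and mitochondria use separate genes for them. EARS2, for glutamate, had 2436, 2315 and 2322 in the Flag-IPs against 2467, 2497 and 2435 in the HA-IPs (log2 fold change 0.065 ± 0.05, SE, n = 3 and 3, limma adjusted p = 0.445), and the ratio of EPRS1 to EARS2 was at most 11.9 in a Flag-IP and at least 12.1 in an HA-IP. PARS2, for proline, had 336, 362 and 359 in the Flag-IPs against 369.8, 403 and 364 in the HA-IPs (log2 fold change 0.10 ± 0.089, SE, n = 3 and 3, limma adjusted p = 0.505). FARS2, for phenylalanine, had 339, 324 and 380.0 in the Flag-IPs against 346, 348 and 397 in the HA-IPs (log2 fold change 0.065 ± 0.10, SE, n = 3 and 3, limma adjusted p = 0.737). Neither PARS2 nor FARS2 gave ratios to its cytosolic partner that were apart between the groups.

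The ratio was also higher in every HA-IP for asparagine (13.6 to 14.7 in the Flag-IPs and 15.2 to 18.7 in the HA-IPs), serine (4.82 to 5.29 and 5.31 to 6.80) and tyrosine (3.01 to 3.36 and 3.67 to 3.76). In these 3 pairs neither gene was called, and the mitochondrial gene lay below 0. The opposite order, every Flag-IP above every HA-IP, was found for TARS3 to TARS2, at 0.5327 to 0.582 and 0.494 to 0.5325. The gap between the groups was narrow here and for serine. How often ratios of other genes show such orders was not counted.

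**Figure D3:**
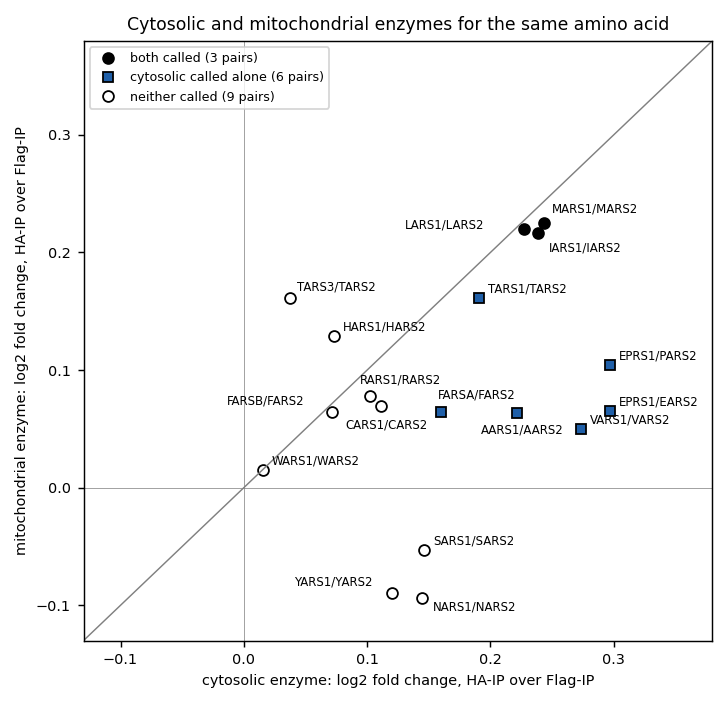
Log2 fold change of the cytosolic gene (x axis) against that of the mitochondrial gene for the same amino acid (y axis) in 18 pairs, with the line of equality. Most points lie below the line, the 3 pairs called in both compartments lie close to it, and the asparagine, serine and tyrosine pairs lie below 0 on the y axis.

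As a whole the 36 genes took 0.798%, 0.801% and 0.830% of the reads in the Flag-IPs against 0.893%, 0.878% and 0.896% in the HA-IPs. The cytosolic genes took 0.613%, 0.616% and 0.642% against 0.695%, 0.687% and 0.702%, and the mitochondrial genes 0.137%, 0.138% and 0.141% against 0.148%, 0.145% and 0.146%. Both sums were higher in all HA-IPs. The sum over the cytosolic genes was 4.47, 4.47 and 4.54 times that over the mitochondrial genes in the Flag-IPs and 4.68, 4.75 and 4.82 times in the HA-IPs. Within the Flag-IPs, the library with the smallest share of heart muscle markers, Flag-IP 3, had the largest share of synthetase reads, and within the HA-IPs HA-IP 3, with the largest share of those markers, also had the largest share of synthetase reads.

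**Figure D4:**
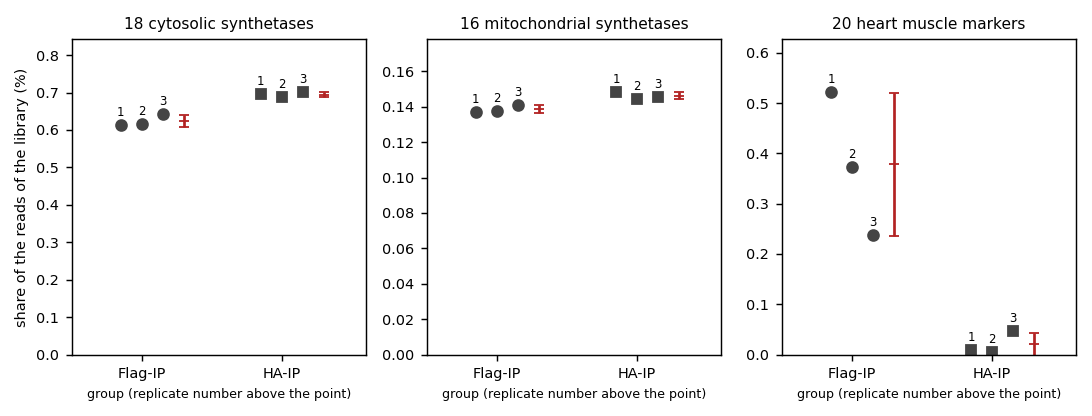
Share of the reads of each library (y axis, %) taken by the 18 cytosolic synthetase genes, the 16 mitochondrial ones and the 20 heart muscle markers, with the mean ± SD of each group (n = 3, red, cut off at 0). The HA-IPs lie above the Flag-IPs in the first 2 panels, at 0.687% to 0.702% against 0.613% to 0.642% and at 0.145% to 0.148% against 0.137% to 0.141%, and below them in the third.

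Levels between genes were compared as normalized counts per kilobase of the canonical transcript, averaged over the 6 libraries. They spanned 40.2-fold, from 6235 for TARS1 to 155 for PARS2. The median was 3514 over the cytosolic and 614 over the mitochondrial genes, and 10 of the 12 highest genes were cytosolic and 10 of the 12 lowest mitochondrial. Next to TARS1 came EPRS1 (5696), VARS1 (5356), MARS1 (5146), FARSA (4969) and IARS1 (4936), all called higher in the HA-IPs. IARS2, at 3959.8, was the highest mitochondrial gene and stood at rank 9, close to IARS1. The lowest cytosolic gene was FARSB, at 461, although it is the partner subunit of FARSA at 4969. FARSB has a canonical transcript of 6761 bases, the longest of the family, of which 1767 are coding, and its value per kilobase depends on that transcript being the one used.

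The cytosolic gene had the higher level per kilobase in 16 of the 18 pairs. The ratio was largest for EPRS1 over PARS2 (36.7) and FARSA over FARS2 (23.5), and lowest for TARS3 over TARS2 (0.42) and CARS1 over CARS2 (0.77). CARS1, for cysteine, was at 805 and CARS2 at 1046 per kilobase.

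The fold change of the synthetases went with coding length and with level. In other genes it did so too, for level more weakly than over the 36. The other genes all averaged 1000 or more, whereas 4 of the synthetases did not, so the ranges of level differ. Spearman's rho between coding length and log2 fold change was 0.61 over the 36 genes, 0.69 over the cytosolic and 0.43 over the mitochondrial ones, and 0.48 over 5898 other protein-coding genes averaging 1000 or more. With mean normalized counts rho was 0.69 over the 36 genes, 0.88 over the cytosolic, 0.30 over the mitochondrial and 0.24 over the others. These are descriptions across genes, which share all 6 libraries and are not independent replicates.

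Under 1500 coding bases, 0 of 6 synthetases (2 of them averaging 1000 or more) were called, beside 5.18% of the other well-expressed genes called higher in the HA-IPs. From 1500 to below 3000 coding bases 8 of 24 were called, beside 17.0%, and at 3000 or more 5 of 6, beside 26.7%. The exception in the longest group was VARS2, with 3189 coding bases and the exon overlap given above. The median log2 fold changes of the synthetases in these 3 groups were 0.015, 0.12 and 0.23, against -0.032, 0.076 and 0.12 in the other genes.

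An alternative added once the data had been seen removed the trends of each library with GC content and coding length, and 8 synthetases were then called (AARS1, EPRS1, FARSA, IARS1, LARS2, MARS1, QARS1 and VARS1). The median became 0.088 over the 36 genes, 0.12 over the cytosolic and 0.038 over the mitochondrial ones, and 0.0029 over all genes. The fold change of EPRS1, the longest coding sequence at 4536 bases, went from 0.30 to 0.18, whereas that of FARSA, at 1524 bases, was 0.17.

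**Figure D5:**
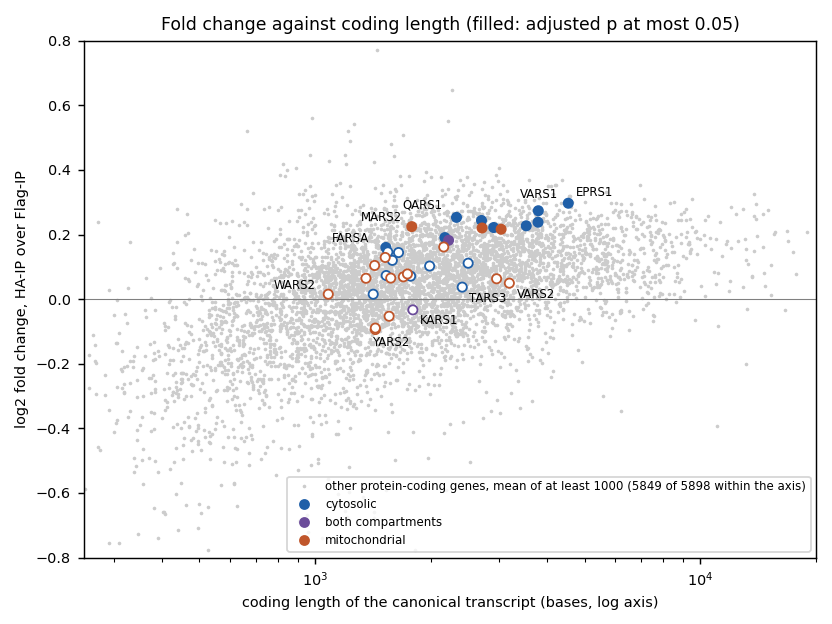
Log2 fold change (HA-IP over Flag-IP) (y axis) against coding length in bases (x axis, log scale) for the 36 synthetases, coloured by compartment and filled where called, over other protein-coding genes averaging 1000 or more (grey). Grey and coloured points both lie higher towards the right, and EPRS1 and VARS1 lie highest among the synthetases while VARS2 lies near 0.

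The list was also counted by class of enzyme. Of the 18 genes with a class I enzyme 8 were called, and of the 17 with a class II enzyme 4, beside EPRS1 with both. The share called higher in the HA-IPs was 5.79% of all genes and 14.4% of those averaging 1000 or more. The part of coding length in the class counts was not tested. The median log2 fold changes were 0.12 for class I and 0.10 for class II. Among the enzymes used in the cytosol, 5 of 9 class I and 4 of 10 class II genes were called, with medians of 0.23 and 0.15.

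The promoters were read for motifs because many synthetase genes share regulators of amino acid supply. RefSeq sequences (GRCh38.p14) were matched for 30 of the 36 genes, and those of AARS2, LARS1, TARS3, VARS1, VARS2 and YARS1 were not matched. In the 250 bases before the start, TGATGNAA, the core of the element that ATF4 binds together with a C/EBP protein, was searched on both strands and found in 3 of 30 synthetase promoters and in 3.19% of 27305 promoters, or 1.33% of the 11687 promoters of genes measured here. CACGTG, the E-box bound by MYC and related factors, was found in 3 of 30, in 6.49% of all and in 8.8% of the measured genes' promoters. CCAAT was found in 16 of 30, in 33% of all and in 34.9% of the measured genes' promoters, and GGGCGG, a GC box, in 20 of 30, in 42.3% and in 66.7%. The windows of 30 bases with the first 2 motifs are given here to show which genes hold them, in the direction of the gene, with the match in capitals (TTGCATCA is TGATGCAA on the other strand).
AARS1, TGATGNAA: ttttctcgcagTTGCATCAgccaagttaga
IARS1, TGATGNAA: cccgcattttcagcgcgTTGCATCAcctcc
YARS2, TGATGNAA: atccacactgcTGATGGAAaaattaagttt
IARS1, CACGTG: tggttcgttttcCACGTGgaggcgcaaaac
MARS2, CACGTG: gctgcgcatgcgcctctcaCACGTGctgtc
EARS2, CACGTG: acgcagggagaagccCACGTGtgctattcc

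The windows lie at chr16:70289675-70289704 (AARS1), chr9:92293698-92293727 and chr9:92293866-92293895 (IARS1), chr12:32756076-32756105 (YARS2), chr2:197705339-197705368 (MARS2) and chr16:23557351-23557380 (EARS2), on the plus strand for MARS2 and on the minus strand for the others. By GENCODE, whose transcripts can start further upstream than those of RefSeq, the AARS1 window, the first IARS1 window and the EARS2 window lie in untranslated exon sequence of some transcripts of these genes, and the AARS1 window also in an exon of DDX19B on the other strand. The second IARS1 window lies outside annotated genes, that of MARS2 in an intron of a long non-coding RNA, and that of YARS2 in an exon of a long non-coding RNA on the opposite strand. AARS1, IARS1 and MARS2 were called higher in the HA-IPs, and YARS2 and EARS2 were not called. TGATGNAA was present in 2 of the 11 called genes with a promoter and in 1 of the 19 others, and CACGTG likewise in 2 of 11 and 1 of 19. A match describes the sequence and does not show that a factor was bound.

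Other genes of the amino acid response were mixed. Of 27 measured, 3 were called higher in the HA-IPs and 1 higher in the Flag-IPs, beside 12.9% of all genes called in either direction, with a median log2 fold change of 0.027. PHGDH, the first enzyme of serine synthesis, had a log2 fold change of 0.19 ± 0.043, SHMT2, the mitochondrial serine hydroxymethyltransferase, 0.20 ± 0.043 and SLC38A2, an amino acid transporter, 0.18 ± 0.048 (SE, n = 3 and 3). VLDLR, a lipoprotein receptor, had -0.38 ± 0.077. ATF4 itself had 11361, 10448 and 10084 in the Flag-IPs against 9568, 10217 and 10761 in the HA-IPs, with the groups overlapping (log2 fold change -0.062 ± 0.059, SE, n = 3 and 3, limma adjusted p = 0.551). ASNS, asparagine synthetase, had 5022, 4437 and 4682 in the Flag-IPs against 5903, 5099.5 and 5337 in the HA-IPs and missed the threshold (log2 fold change 0.21 ± 0.064, SE, n = 3 and 3, limma adjusted p = 0.0564).

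Of 27 genes of tRNA maturation, 2 were called higher in the HA-IPs and 3 higher in the Flag-IPs, beside 5.79% and 7.1% of all genes. ELAC2, the nuclease that trims the 3′ end of tRNA precursors, had 9627, 10860.0 and 12328 in the Flag-IPs against 14205, 14626 and 13607 in the HA-IPs (log2 fold change 0.38 ± 0.076, SE, n = 3 and 3, limma adjusted p = 0.00949). POP1, a protein of RNase P, had a log2 fold change of 0.22 ± 0.062, and POP7 and RPP21, of the same enzyme, had -0.37 ± 0.08 and -0.56 ± 0.11. With GC and transcript length trends removed POP7 and RPP21 were no longer called (-0.17 and -0.30, limma adjusted p = 0.0871 and 0.0662), and with GC and coding length trends removed neither POP1 nor POP7 was (0.13 and -0.14, limma adjusted p = 0.144 and 0.159). RTRAF, a subunit of the tRNA ligase complex, had -0.25 ± 0.072 and was called higher in the Flag-IPs.

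Of 9 genes that deliver charged tRNA or move the ribosome on, GFM1, a mitochondrial elongation factor, was called higher in the HA-IPs (log2 fold change 0.18 ± 0.052, SE, n = 3 and 3, limma adjusted p = 0.0414) and EEF1A2 higher in the Flag-IPs. GFM1 was not called with either length trend removed (limma adjusted p = 0.0912 and 0.156). EEF1A2, the form of the elongation factor typical of muscle and neurons, had 10135, 9143 and 7801 in the Flag-IPs against 3879.6, 3685 and 4194 in the HA-IPs (log2 fold change -1.20 ± 0.084, SE, n = 3 and 3, limma adjusted p = 5.22e-05). Flag-IP 1 was its highest and Flag-IP 3 its lowest Flag-IP, as for the summed heart muscle markers, whose part here was not tested. EEF1A1, the widely expressed form, had 230158, 219959 and 205812 in the Flag-IPs against 232579, 212679 and 224840.0 in the HA-IPs, which overlapped (log2 fold change 0.031 ± 0.065, SE, n = 3 and 3, limma adjusted p = 0.806). Among the 4 genes of the mitochondrial amidotransferase and formylation, through which mitochondria make Gln-tRNA and formyl-methionyl-tRNA, GATB was called higher in the HA-IPs, as 5.79% of all genes were (log2 fold change 0.28 ± 0.071, SE, n = 3 and 3, limma adjusted p = 0.0268). Of 6 genes of selenocysteine synthesis and insertion none was called by limma, edgeR or DESeq2, with 1 at an unadjusted p of under 0.05. The list for proofreading held AARSD1, DTD1 and DTD2, and also the peroxiredoxin-like PRXL2A and the pseudogene PRORSD1P. Of these 5 none was called by the same 3 tests, with 0 at an unadjusted p of under 0.05. WARS2-AS1, antisense to WARS2, had 344, 374 and 378 in the Flag-IPs against 428, 344 and 319 in the HA-IPs (log2 fold change -0.018 ± 0.12, SE, n = 3 and 3, limma adjusted p = 0.942).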

How the data were processed

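RNA bound to ribosomes was recovered from HEK293-T Flp-In cells with a Flag antibody in 3 samples and an HA antibody in 3, and polyadenylated RNA was sequenced in paired reads of 150 bp. The authors used Trimmomatic 0.36 for trimming, STAR 2.5.2b for mapping to GRCh38 and counted reads with featureCounts (Subread 1.5.2), then excluded genes with few reads, and divided the counts of each library by its size factor. Strand use in counting is not given in the sources used here. The deposited table holds these normalized counts, a signal per gene and library, and columns of the authors' own comparison (log2 fold change and adjusted p), which were not used. The table has 0 per-sample columns of other samples.

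Divided by the worth of 1 read in its library, 100% of the values came within 0.01 of a whole number of reads. The 36 synthetases were matched by symbol, and groups were taken from the titles of the samples. The members and gene lists were chosen with earlier results of these data known, so they are no independent evidence. The log2(normalized counts + 1) of all genes were fitted with limma 3.58.1 (R 4.3.3), letting the variance follow the mean, with a two-sided test and Benjamini-Hochberg adjustment over 16834 genes. A fold change on this scale understates the change of low genes. On recovered reads, DESeq2 1.42.0 and the quasi-likelihood test of edgeR 4.0.16, other pseudocounts, filters and scalings, limma without the trend, a replicate block, leaving out each library, and removal of GC and length trends (splines of 5 degrees of freedom, MASS 7.3.60.0.1, GENCODE release 44 on GRCh38, 16683 genes with transcript length and 13864 with coding length) were alternatives. Scripts were tested on simulated data. Coordinates are those of GRCh38. The genes given with values per library include the called synthetases, their partners for the same amino acid, and the highest and lowest per kilobase. Of the called genes of related lists ELAC2 and EEF1A2 are given so, and the others by fold change. The antisense gene WARS2-AS1 is also given so. FARSB, NARS1, SARS1, WARS1, YARS2, NARS2, SARS2, RARS1, KARS1, DDIT3, ATF4, ASNS and EEF1A1 were added after their values were seen. With 3 libraries a group, the smallest exact p over samples is 0.1. A synthetase had 259 reads or more in each library.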

Additional observations from a re-analysis of the deposited data

How the results depend on the processing

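Beside 2171 genes called, limma without the variance trend called 188, and leaving out 1 library gave 620 to 3059. Beside 13 synthetases called, quantile normalization called 7, limma without the trend 0 (15 at an unadjusted p of under 0.05), removal of GC and coding length trends 8, and leaving out 1 library 0 (without Flag-IP 2) to 14 (without Flag-IP 3, 12 of them among the 13). The cytosolic median log2 fold change of 0.15 was 0.098 under quantile normalization and 0.10 at the same total per library. The mitochondrial median of 0.067 was 0.014 at the same total, 0.094 with GC and transcript length trends removed and 0.038 with GC and coding length trends removed. Their difference of 0.086 was 0.017 under quantile normalization. All these medians stayed above 0. edgeR, both other pseudocounts and the same upper quartile called 13, and the filter on low genes, DESeq2 and the removal of GC and transcript length trends 14. The replicate numbers are shared between the groups, but same-numbered libraries did not deviate together (Pearson's r -0.156, 0.0306 and -0.31). The fit with the replicate number as a block called 1662 genes and 11 synthetases, without FARSA and MARS2. Scaling to the same total turned the sign of TARS3, VARS2, WARS1 and WARS2, and removing GC and coding length trends that of TARS3, VARS2 and WARS1, none of them called. The added alternative was chosen after seeing the data. At the fewest reads of a synthetase in 1 library, 259 for PARS2, counting error alone is 6.21%, above the coefficient of variation of PARS2 in the Flag-IPs (3.92%). The part of depth in the spread of the least abundant mitochondrial genes was not tested.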
